A study of Rattus norvegicus with 10 samples.

Results

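The 10 genes described here encode the core of the microRNA pathway: the nuclear processing enzyme Drosha and its partner Dgcr8, the export pair Xpo5 and Ran, the cytoplasmic enzyme Dicer1 and its partner Tarbp2, and the 4 Argonaute proteins Ago1, Ago2, Ago3 and Ago4. They were taken by gene symbol from a deposited table of 16041 rat genes, and all 10 were found, each as 1 row. The ELS group was 5 male Sprague-Dawley rats that had gone through early life stress as limited nesting, a shortage of bedding for the mother and her litter, from postnatal day 2 to postnatal day 9. The control group was 5 male Sprague-Dawley rats without limited nesting. In both groups prefrontal cortex was collected at postnatal day 91 and poly(A)-selected RNA was sequenced, 1 library per tissue sample. Litters are not given in the labels, so the spread behind each p-value is that between tissue samples, which may have shared a litter.

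MicroRNAs are short RNAs that guide Argonaute proteins to matching sites in messenger RNAs, which are then translated less and decay faster. Drosha, held on the primary transcript by Dgcr8, cuts out a hairpin. Xpo5 carries the hairpin out of the nucleus together with Ran in its GTP-bound form. Dicer1, with Tarbp2, trims it to a duplex, and an Argonaute keeps 1 strand as its guide. Of the mammalian Argonautes, Ago2 is the one best known for cutting its target. In mice, loss of Dicer from forebrain neurons changes dendrites and costs neurons. Mature microRNAs have no poly(A) tail and were not measured, so all values concern the messenger RNAs of the machinery.

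Dgcr8 is itself tied to the step it serves, because Drosha and Dgcr8 cut hairpins in the Dgcr8 messenger, as known from human and mouse cells. RefSeq places the microRNA gene Mir1306 inside rat Dgcr8, at chr11:96213960-96214032 on the plus strand of GRCr8. It is shown because it lies within a gene whose level is reported, with both mature arms in capitals.
Mir1306: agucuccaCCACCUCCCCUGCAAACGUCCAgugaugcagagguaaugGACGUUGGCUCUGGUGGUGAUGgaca

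Ago3, Ago1 and Ago4 stand next to each other on rat chromosome 5, and Ago2 is on chromosome 7. Because the 3 neighbours stood at different levels, their promoters are set side by side, from 250 bases before to 50 after the start, as RefSeq gives them on GRCr8 (minus strand). They lie at chr5:144041575-144041874 (Ago1), chr5:143998688-143998987 (Ago3) and chr5:144110353-144110652 (Ago4). Capitals mark GGGCGG or its reverse complement CCGCCC, the letters of a GC box.
Ago1: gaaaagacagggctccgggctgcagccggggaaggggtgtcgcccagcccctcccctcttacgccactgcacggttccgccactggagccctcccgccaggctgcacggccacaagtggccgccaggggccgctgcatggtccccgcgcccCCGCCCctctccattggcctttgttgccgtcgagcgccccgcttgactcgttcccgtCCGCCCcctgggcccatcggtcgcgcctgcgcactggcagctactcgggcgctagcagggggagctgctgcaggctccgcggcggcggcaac
Ago3: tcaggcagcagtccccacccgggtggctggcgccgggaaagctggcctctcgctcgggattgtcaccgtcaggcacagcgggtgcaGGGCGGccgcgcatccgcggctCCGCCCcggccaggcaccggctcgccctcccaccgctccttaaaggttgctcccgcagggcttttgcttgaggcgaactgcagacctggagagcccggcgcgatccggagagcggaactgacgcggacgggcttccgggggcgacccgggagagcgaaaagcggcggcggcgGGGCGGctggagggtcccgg
Ago4: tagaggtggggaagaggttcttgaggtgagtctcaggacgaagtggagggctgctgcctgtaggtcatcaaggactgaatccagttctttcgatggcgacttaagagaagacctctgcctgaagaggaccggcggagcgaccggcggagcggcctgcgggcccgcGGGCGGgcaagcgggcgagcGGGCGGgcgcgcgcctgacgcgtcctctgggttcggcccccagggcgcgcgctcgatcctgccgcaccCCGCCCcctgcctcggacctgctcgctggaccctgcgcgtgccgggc
These letters occur 2 times in the Ago1 window, 3 times in the Ago3 window and 3 times in the Ago4 window, both strands counted. RefSeq's promoter table held 9 of the 10 genes, and 7 of the 9 windows had GGGCGG on either strand, against 33.1% of 33469 rat promoters of the same length. CCAAT on either strand was in 4 of the 9, against 37.5% of all promoters, and TATAAA in 0 of the 9, against 14.2%. Each motif was counted on its own, and overlaps between matches of different motifs were not checked. A match is a description of the letters and was not tied to any value below.

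The 10 libraries held 18838898 to 22311136 reads in all. The share of reads that fell in listed genes was 72.9% to 73.7% in ELS replicates 1, 3, 4 and 5, 71.8% in ELS replicate 2 and 71.1% to 72.4% in the controls. Neuron markers of cortex (Rbfox3, Snap25, Syt1, Slc17a7 and Gad1) were above 0 in every library, which does not tell prefrontal cortex from other brain regions. Levels below are RPKM, read numbers scaled by gene length and library total. Fold changes set ELS over control as differences of log2(RPKM + 0.1), where the added 0.1 shrinks those of low genes, fitted by limma across 14642 genes with p-values adjusted over all of them. Striatal markers (Drd1, Ppp1r1b and Adora2a) summed to 42.0 to 49.7 RPKM in ELS and 32.8 to 87.5 RPKM in controls, the highest in control replicate 1, with the other controls at up to 44.5. Choroid plexus markers (Ttr and Kcnj13) summed to 0.859 to 1.49 RPKM in ELS and 0.961 to 31.2 RPKM in controls, the highest in control replicate 4, with the other controls at up to 2.64. Leaving out control replicate 1 gave log2 fold changes of -0.95 for Ago2 and -0.24 for Dicer1, and leaving out control replicate 4 gave -0.89 and -0.22. For Ago3 it was -0.757 with all libraries, -0.635 without control replicate 1 and -0.887 without control replicate 4. For Ago4 the same fits gave -0.298, -0.297 and -0.237.

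By level, the pathway ran from Ran to Ago3. Ran averaged 99.0 RPKM over the 10 libraries and lay above 97.3% of the tested genes. Its protein serves nuclear transport in general and has many duties beside microRNA export. Drosha followed at 23.0 RPKM. Tarbp2 at 12.3, Xpo5 at 12.0 and Ago1 at 11.2 RPKM could not be ordered, since their ranges overlapped and Tarbp2 exceeded Xpo5 in 5 of 10 libraries. Dgcr8 came next at 6.52 RPKM, above Dicer1 in all 10 libraries. Dicer1 at 4.89 and Ago2 at 4.29 RPKM overlapped, with Dicer1 higher in 5 of 10. Ago4 at 1.33 and Ago3 at 0.740 RPKM were the lowest, Ago3 lying above only 5.25% of the tested genes, and Ago4 exceeded Ago3 in all 10 libraries.

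**Figure D1:**
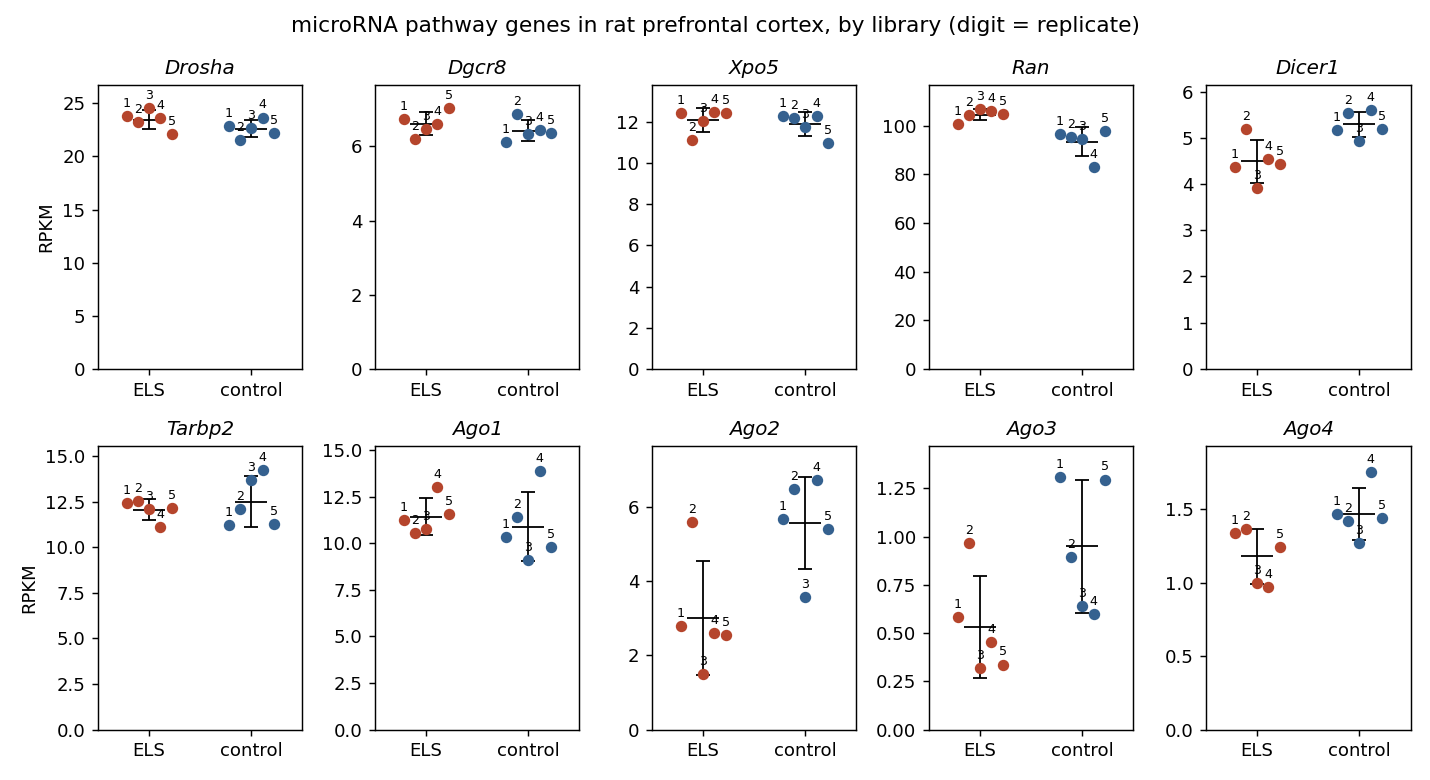
Level of each gene in RPKM (vertical axes, each from 0) in the 5 ELS and 5 control libraries; digits are replicate numbers, bars are mean and SD. Ago2, Ago3 and Dicer1 are low in ELS replicates 1, 3, 4 and 5 and not in ELS replicate 2, and Ran lies above every control library in all 5 ELS libraries.

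Ago2, Ago3, Ago4 and Dicer1 had lower means in ELS, Ran had a higher one, and Drosha, Dgcr8, Xpo5, Tarbp2 and Ago1 differed by at most 0.08 on the log2 scale. None of the 10 passed an adjusted p of 0.05 with all libraries (limma), and 0% of all genes tested did. At an unadjusted p under 0.05 there were 5 of 10, of which 4 were lower and 1 was higher, against 20.4% of all genes, 10.3% lower and 10.1% higher. The median log2 fold change of the 10 was -0.01, against 0.00 for all genes tested. In this bulk tissue, fewer cells of a type and less RNA per cell cannot be told apart.

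Ago2 (ENSRNOG00000008533) showed the widest difference. It was at 2.80, 5.59, 1.48, 2.60 and 2.56 RPKM in ELS replicates 1 to 5, against 5.67, 6.48, 3.58, 6.72 and 5.40 RPKM in control replicates 1 to 5. ELS replicates 1, 3, 4 and 5 lay below every control, while ELS replicate 2 lay among the controls. Means were 3.01 ± 1.53 RPKM in ELS and 5.57 ± 1.24 RPKM in controls (SD, n = 5 each), from 93 to 467 reads per library. The log2 fold change was -0.96 ± 0.30 (SE), or 0.514-fold, with an interval at 95% of -1.62 to -0.30 and an adjusted p of 0.145 by limma. An exact permutation test gave an unadjusted p of 0.0238, two-sided. Without ELS replicate 2 the log2 fold change was -1.21 ± 0.23 (SE, limma, adjusted p = 0.0293), a setting in which 3.03% of all genes passed. Since that library was the ELS one among the controls, leaving it out widened the difference and is no independent support. The same holds for Ago3, Dicer1, Tnrc6b and Rangap1 below. With any 1 other library left out, the adjusted p of Ago2 was 0.162 to 0.304 (limma).

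Dicer1 (ENSRNOG00000010711) followed the same libraries within a narrower range. It was at 4.37, 5.20, 3.92, 4.54 and 4.42 RPKM in ELS replicates 1 to 5, against 5.17, 5.54, 4.93, 5.61 and 5.20 RPKM in control replicates 1 to 5. Again ELS replicates 1, 3, 4 and 5 were below every control and ELS replicate 2 was not. In the limma fit Dicer1 was at 0.849-fold, -0.24 ± 0.08 on the log2 scale (SE; adjusted p = 0.159), and without ELS replicate 2 it was -0.29 ± 0.07 (adjusted p = 0.0582). Its partner Tarbp2, which binds double-stranded RNA, had 12.1 ± 0.569 RPKM in ELS and 12.5 ± 1.40 RPKM in controls (SD, n = 5 each). The Tarbp2 groups overlapped, with a log2 fold change of -0.05 (interval at 95% -0.21 to 0.12) that was 0.00 without control replicate 4. The ratio of Dicer1 to Tarbp2 levels was 0.373 ± 0.0387 in ELS and 0.427 ± 0.0471 in controls (SD, n = 5 each), given without a test.

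Ago3 (ENSRNOG00000034269) was the rarest of the 10, with 20 to 84 reads per library. It was at 0.585, 0.964, 0.317, 0.455 and 0.337 RPKM in ELS replicates 1 to 5, against 1.31, 0.896, 0.643, 0.600 and 1.30 RPKM in control replicates 1 to 5. In the ELS group the order of libraries was that of Ago2: replicate 2 was within the control range and replicates 1, 3, 4 and 5 were below it, replicate 1 by a small margin. Limma put the difference at -0.76 ± 0.31 (log2, SE; adjusted p = 0.210), and with a pseudocount of 1 it was -0.35. Without ELS replicate 2 it was -0.97 ± 0.28 (SE; limma, adjusted p = 0.0907). With replicate weights from limma-voom it was -1.17 ± 0.29 (adjusted p = 0.0410), a fit in which 5.86% of all genes passed. The exact permutation test of Ago3 gave an unadjusted p of 0.0556, two-sided.

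Ago4 (ENSRNOG00000025596) was at 1.34, 1.36, 0.998, 0.968 and 1.24 RPKM in ELS replicates 1 to 5, against 1.47, 1.42, 1.27, 1.75 and 1.44 RPKM in control replicates 1 to 5. Here 3 ELS libraries lay below every control, and replicates 1 and 2 lay within the control range. Limma put the difference at -0.30 ± 0.13 (log2, SE; adjusted p = 0.244), and with a pseudocount of 1 it was -0.18.

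Ago1 (ENSRNOG00000055915), the most abundant Argonaute here, had a slightly higher mean in ELS. It was at 11.3, 10.6, 10.8, 13.0 and 11.6 RPKM in ELS replicates 1 to 5, against 10.3, 11.4, 9.08, 13.9 and 9.81 RPKM in control replicates 1 to 5. All 5 ELS libraries were inside the control range. Its log2 fold change was 0.08 (interval at 95% -0.16 to 0.32; limma, adjusted p = 0.699), and it was 0.02 without control replicate 3 and 0.17 without control replicate 4, with adjusted p of 0.934 and 0.238.

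The genes Ago2, Ago3 and Dicer1, 3 of the 10, were below every control in ELS replicates 1, 3, 4 and 5 and not in ELS replicate 2, a pattern chosen after the values were seen. Of all genes tested, 3.96% had it. The share of reads in listed genes moved with the same libraries, as given above, and its part in these values was not tested. Summed astrocyte markers (Aqp4, Gfap, Aldh1l1, Gja1 and Slc1a3) were at 335.3 to 378.3 RPKM in ELS and 389.0 to 585.6 RPKM in controls, with 5 of 5 markers lower in the mean. Oligodendrocyte markers (Mbp, Mog, Cnp and Mobp) summed to 442.9 to 592.6 RPKM in ELS and 628.1 to 1368 RPKM in controls, with 4 of 4 lower. Oligodendrocyte precursor markers (Pdgfra and Cspg4) summed to 11.6 to 12.2 RPKM in ELS and 12.5 to 14.1 RPKM in controls, with 2 of 2 lower. Summed neuron markers were at 1568 to 1790 RPKM in ELS and 1334 to 1500 RPKM in controls, with 5 of 5 higher on the log2 scale. Of these, Gad1 was higher by only 0.03 on that scale, and its mean was 50.5 RPKM in ELS and 51.0 RPKM in controls. In these 4 sums ELS replicate 2 stood with the other ELS libraries outside the control range. By single marker, ELS replicate 2 was within the control range for Aldh1l1, Gja1, Slc1a3, Mog, Rbfox3, Slc17a7 and Gad1. It was outside that range for the other markers named for these sums. Aldh1l1 was at 7.38 RPKM in ELS replicate 2 and 7.21 to 8.03 RPKM in controls. In ELS replicates 1, 3, 4 and 5 it was at 6.11 to 6.85 RPKM, below every control. Microglia markers (Cx3cr1, C1qa, C1qb, C1qc and Csf1r) summed to 67.5 to 82.8 RPKM in ELS and 79.1 to 92.5 RPKM in controls, with 5 of 5 lower. This sum had the pattern of Ago2, Ago3 and Dicer1: ELS replicates 1, 3, 4 and 5 lay below every control and ELS replicate 2, at 82.8, did not. By single marker C1qa had it too. C1qb and C1qc were below every control in all 5 ELS libraries, and the groups overlapped for Cx3cr1 and Csf1r. Blood markers (Hbb, Hba-a2 and Alas2, in 4 rows) summed to 213.8 to 438.0 RPKM in ELS and 411.5 to 981.0 RPKM in controls, with 4 of 4 rows lower. ELS replicates 1 and 2 lay within the control range of that sum, and ELS replicates 3, 4 and 5 lay below it. Of 3 endothelial markers only Flt1 was matched, at 7.42 to 9.57 RPKM in ELS and 7.82 to 9.57 RPKM in controls. No marker of these 7 lists was at 0 in any library, and the part of cell makeup in the values of the 10 genes was not tested.

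The make-up of the Argonaute pool, the summed RPKM of the 4 genes, shifted with these levels and is given without a test. Ago2 made up 17.5%, 30.2%, 10.9%, 15.2% and 16.3% of it in ELS replicates 1 to 5, against 30.2%, 32.1%, 24.5%, 29.3% and 30.1% in control replicates 1 to 5. Ago1 took 71.4% ± 8.63 in ELS and 57.8% ± 3.43 in controls (SD, n = 5 each). Ago3 took 3.21% ± 1.27 in ELS and 5.13% ± 1.94 in controls, and Ago4 took 7.34% ± 1.02 in ELS and 7.84% ± 0.608 in controls. The share of Ago2 in ELS replicates 1, 3, 4 and 5 was below that of every control library. The pool itself was at 16.2 ± 1.80 RPKM in ELS and 18.9 ± 3.07 RPKM in controls, and the groups overlapped. Shares of a pool are tied to each other, so a lower Ago2 by itself raises the share of Ago1. They also rest on the gene lengths behind RPKM, from 2886 bases for Ago1 to 3737 bases for Ago4.

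**Figure D2:**
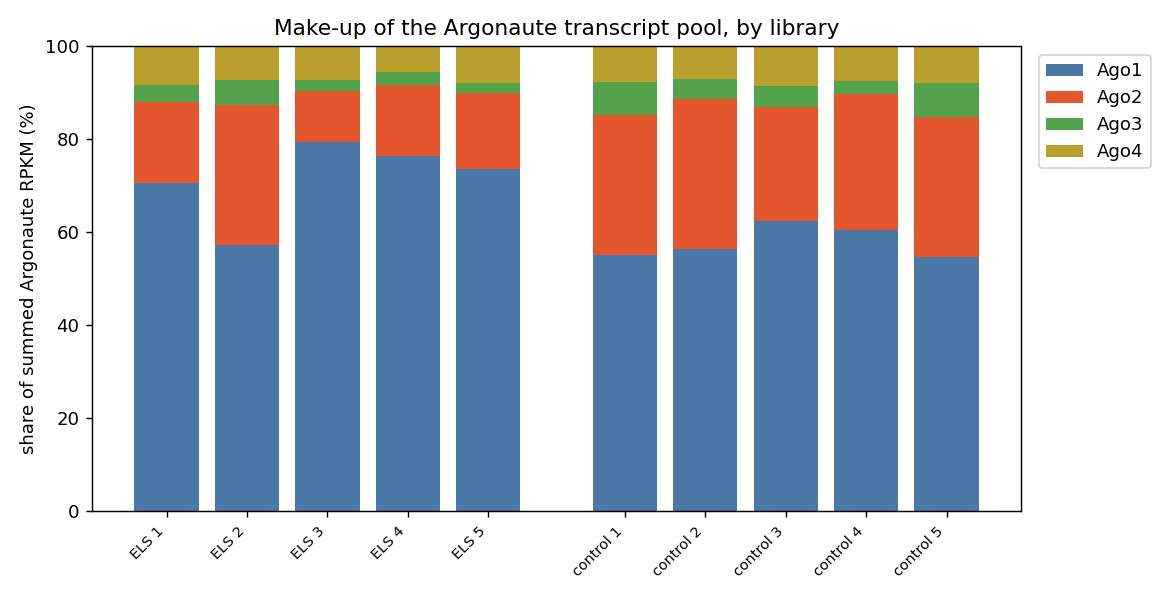
Share of each Argonaute gene in the summed Argonaute RPKM (vertical axis, percent), 1 bar per library, ELS on the left and controls on the right. Ago2 takes 10.9% to 17.5% in ELS replicates 1, 3, 4 and 5, 30.2% in ELS replicate 2 and 24.5% to 32.1% in controls.

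The nuclear processing complex varied little between libraries, with a coefficient of variation for Drosha of 3.96% in ELS and 3.42% in controls and for Dgcr8 of 4.70% in ELS and 4.36% in controls. Drosha (ENSRNOG00000013451) was at 23.8, 23.2, 24.6, 23.6 and 22.1 RPKM in ELS replicates 1 to 5, against 22.9, 21.6, 22.7, 23.7 and 22.3 RPKM in control replicates 1 to 5. For Drosha the log2 fold change was 0.05 (interval at 95% -0.04 to 0.15; limma, adjusted p = 0.488). Dgcr8 (ENSRNOG00000001886), which holds the hairpin shown above, was at 6.73, 6.21, 6.46, 6.60 and 7.04 RPKM in ELS replicates 1 to 5, against 6.11, 6.88, 6.33, 6.44 and 6.36 RPKM in control replicates 1 to 5. Its log2 fold change was 0.04 (interval at 95% -0.08 to 0.16; limma, adjusted p = 0.708). Both groups overlapped in each gene, and the ratio of Drosha to Dgcr8 levels was 3.56 ± 0.263 in ELS and 3.53 ± 0.237 in controls (SD, n = 5 each). Both intervals included 0 and left room for a small difference in either direction, up to the limits given.

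Of the export pair, Ran had higher values in every ELS library, while the groups overlapped for Xpo5. Ran (ENSRNOG00000000938) was at 100.9, 104.4, 106.9, 106.2 and 104.7 RPKM in ELS replicates 1 to 5, against 96.6, 95.3, 94.4, 82.9 and 97.9 RPKM in control replicates 1 to 5. All 5 ELS libraries lay above every control, as in 3.08% of all genes tested. Limma put the difference at 0.17 ± 0.05 (log2, SE), or 1.12-fold (adjusted p = 0.135), and an exact permutation test gave p = 0.00794, the smallest that the possible assignments of 10 libraries can give. Control replicate 4 was far below the other controls, and without it the log2 fold change was 0.12 (limma, adjusted p = 0.0960). Xpo5 (ENSRNOG00000019085) was at 12.1 ± 0.585 RPKM in ELS and 11.9 ± 0.566 RPKM in controls (SD, n = 5 each), with overlapping groups and a log2 fold change of 0.02 (interval at 95% -0.09 to 0.14).

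**Figure D3:**
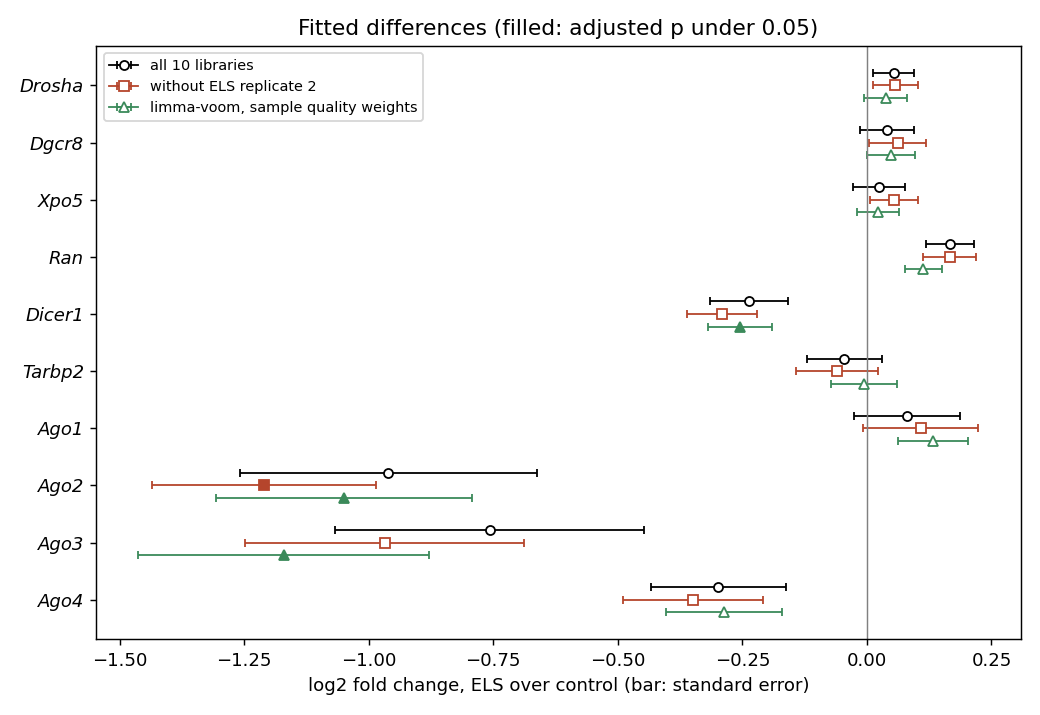
Log2 fold change of ELS over control (horizontal axis) with its standard error for each gene in 3 fits: all 10 libraries, without ELS replicate 2, and limma-voom with sample quality weights. Filled symbols have an adjusted p under 0.05: Ago2 without ELS replicate 2, and Ago2, Ago3 and Dicer1 with sample quality weights.

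How firmly Ago2, Ago3 and Dicer1 differed depended on how single libraries were weighted. Limma-voom with sample quality weights gave control replicate 4 a weight of 0.169 and ELS replicate 2 one of 0.890. In that fit 3 of the 10 genes passed, Ago2 (adjusted p = 0.0438), Ago3 and Dicer1 (adjusted p = 0.0397), all lower in ELS, as did 5.86% of all genes in either direction and 3.98% lower. With ELS replicate 2 and control replicate 4 both left out, limma passed Ago2 (adjusted p = 0.0245), Ago3 (0.0404) and Ran (0.0467), against 7.62% of all genes. Limma-voom without weights passed 0 of the 10.

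The profile of Ago2 across the 10 libraries, centred and divided by its SD on the log2 scale, was closest to that of Dicer1 among all genes tested. The mean absolute distance between both was 0.147 SD. Next came Celf2, which encodes an RNA-binding protein, at 0.150 SD, with 32.6 to 54.1 RPKM in ELS and 42.9 to 55.6 RPKM in controls. The genes nearest to Ago3 were Rsf1 (0.143 SD), a chromatin remodelling gene, and Myo9a (0.174 SD), a myosin gene. Those nearest to Ago1 were Syt7 (0.235 SD), a synaptotagmin gene, and Slc6a15 (0.288 SD), a neutral amino acid transporter gene. For Ago4 they were a row for the spliceosomal RNA U6 (0.197 SD), which has many near-identical copies and only 0 to 8 reads here, and Heatr5a (0.223 SD). These distances are descriptions over libraries that also share the group difference.

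Beyond the 10 genes, effectors that act after Argonaute included lower and higher genes. In the list of GW182 proteins, deadenylases and decapping factors, 26 of 28 genes were measured, 0 passed an adjusted p of 0.05 (limma), and 7 lower and 2 higher were at an unadjusted p under 0.05, where 10.3% of all genes were lower and 10.1% higher. The list's median log2 fold change was -0.05, against 0.00 for all genes tested. Tnrc6b, a GW182 protein that Argonautes recruit, was at 4.90, 6.25, 4.10, 4.25 and 4.63 RPKM in ELS replicates 1 to 5, against 6.34, 6.34, 5.54, 5.86 and 6.42 RPKM in control replicates 1 to 5. Limma put the difference at -0.35 ± 0.11 (log2, SE; adjusted p = 0.146), and without ELS replicate 2, which again lay among the controls, it was -0.44 (adjusted p = 0.0245). The deadenylase gene Cnot6 had a log2 fold change of -0.25 and Pan3, a subunit of another deadenylase, one of -0.19. Pan3 was below every control in all 5 ELS libraries, as in 2.6% of all genes tested. Eif4enif1, which binds the cap-binding protein eIF4E, had a log2 fold change of 0.22 (limma, adjusted p = 0.149).

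**Figure D4:**
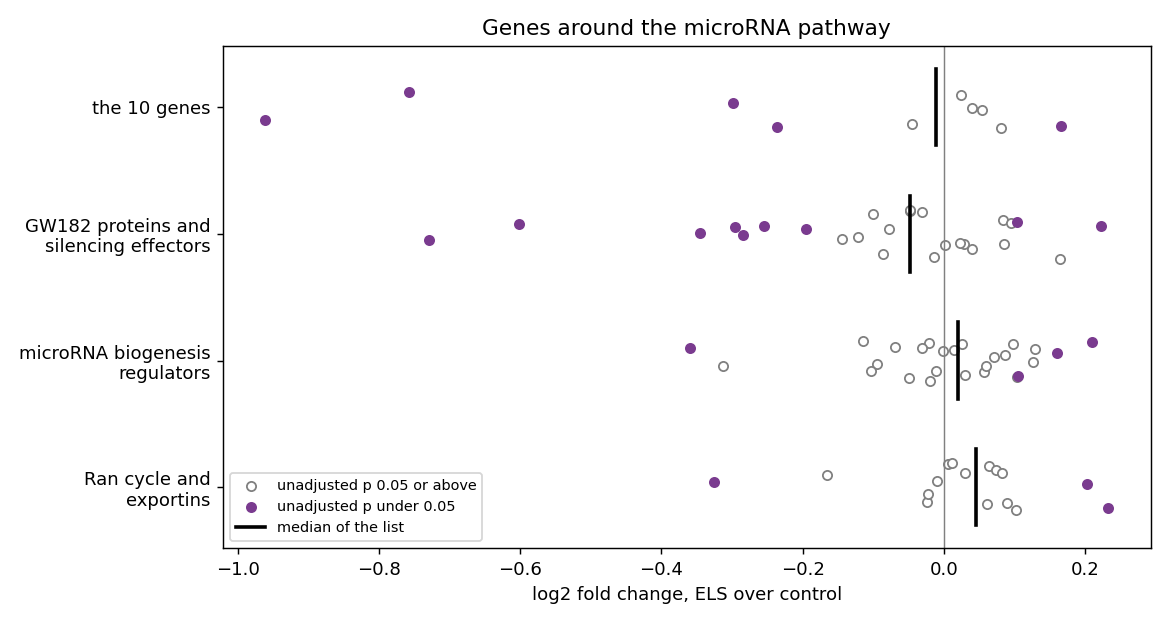
Log2 fold change of ELS over control (horizontal axis) for each measured gene of the 10 and of 3 lists around them; filled points have an unadjusted p under 0.05 and black lines are medians. The medians lie between -0.05 and 0.05, and in each of the 4 groups plotted the lowest gene lies farther from 0 than the highest.

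Regulators of microRNA processing numbered 26 measured of 30, with a median log2 fold change of 0.02, and 1 lower and 3 higher at an unadjusted p under 0.05 (limma, 0 at an adjusted p under 0.05), against 20.4% of all genes, so the list did not exceed the background. Ddx17, a helicase that joins the Drosha complex, was lower, at 58.6, 66.1, 42.5, 51.0 and 53.8 RPKM in ELS replicates 1 to 5, against 69.6, 81.5, 68.4, 66.9 and 60.5 RPKM in control replicates 1 to 5. For Ddx17 limma put the difference at -0.36 ± 0.11 (log2, SE; adjusted p = 0.151). Trim32, a ubiquitin ligase that binds Argonaute in mouse, had 0.21, Adar, an RNA-editing enzyme, 0.16 and Fxr2, a relative of the fragile X protein, 0.11 as log2 fold changes. Adar lay above every control in all 5 ELS libraries, as in 3.08% of all genes tested.

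Among 16 of 16 genes of the Ran cycle and of related carriers, the median log2 fold change was 0.05, with 2 higher and 1 lower at an unadjusted p under 0.05 (limma, 0 at an adjusted p under 0.05), a share near the 20.4% of all genes. Rangap1, which makes Ran hydrolyse its GTP, averaged 57.9 RPKM in ELS and 50.3 RPKM in controls, a difference of 0.20 ± 0.06 (log2, SE; limma, adjusted p = 0.138), and passed without ELS replicate 2 (adjusted p = 0.0371). The importin gene Ipo5 had a log2 fold change of 0.23 and the exportin gene Cse1l one of 0.10. Xpo4, another exportin, had one of -0.33, or -0.22 with a pseudocount of 1. It was below every control in ELS replicates 1, 3, 4 and 5 and not in ELS replicate 2, as in 3.96% of all genes tested. Of the PIWI relatives of the Argonautes, 1 of 3 genes was measured, Piwil2, at 0.848 to 1.13 RPKM in ELS and 0.429 to 0.915 RPKM in controls, from 50 to 124 reads per library (log2 fold change 0.48, or 0.24 with a pseudocount of 1; limma, adjusted p = 0.196 and 0.183).

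RefSeq lists a long non-coding RNA locus that overlaps Ago1, another that overlaps Ago2 and one more that overlaps Ago3. The strand setting of the authors' counting is not known, so reads of these loci could be part of the values of these 3 genes.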

How the data were processed

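Poly(A)-selected RNA of prefrontal cortex from 5 ELS and 5 control rats was sequenced, 1 library per tissue sample. The authors deposited 1 table of 16041 genes whose values behave as RPKM; its header does not name the unit. STAR, featureCounts and the build rn6 are named in the submitters' processing notes, without versions. No source used here gives the annotation release or the strand setting of the counting.

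The 10 genes were matched by symbol, 1 row each. The steps between values gave back whole reads, the length of each gene and the total of each library, for 16015 of 16015 rows above 0, within 0.002 reads. Library totals were 18838898 to 22311136 reads. 0 columns belonged to other samples.

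The fit used log2(RPKM + 0.1). Genes needed 0.5 RPKM or more in 5 libraries, which left 14642, tested by limma 3.58.1 in R 4.3.3, with a mean-variance trend, robust moderation and Benjamini-Hochberg adjustment over all of them, two-sided, at a threshold of 0.05. Exact permutation tests used every assignment of the libraries to 2 groups of 5. The procedure was also run on simulated reads, with the same added spread between libraries for every gene and no library set apart. That does not cover genes as variable as Ago2, whose coefficient of variation was 51.0% in ELS and 22.3% in controls. Alternatives were 2 other pseudocounts, 2 other filters, 2 scalings, limma-voom on the recovered reads with and without sample quality weights, each library left out, ELS replicate 2 and control replicate 4 both left out, and a replicate block.

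The 10 genes, the gene lists and the alternatives were chosen with earlier results of these data known. Named beside the 10 genes are the up to 4 genes of lowest p in each list, and for each Argonaute gene the 2 genes with the most alike profile. All 9 lists of cell type markers are given; 1 marker of the oligodendrocyte list is not reported here and is left out of the printed sum. Promoter and microRNA sequences come from RefSeq on the build GRCr8, not the authors' build.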

Additional observations from a re-analysis of the deposited data

Results flagged for a closer look

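Ran in control replicate 4 was at 82.9 RPKM, and the gap to the next control library was 0.771 of the range of the control group, above Dixon's critical value of 0.710 for 5 samples. It was the 1 group of the 20 checked (10 genes in 2 groups) that stood out, and chance alone marks about 1 in 20. The same library held the highest summed astrocyte markers, 585.6 RPKM, the highest summed oligodendrocyte markers, 1368 RPKM, the highest summed choroid plexus markers, 31.2 RPKM (of which Ttr, with 487 reads, made up 31.1), and the lowest summed neuron markers, 1334 RPKM. Its part in the level of Ran was not tested.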

How the results depend on the processing

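Of the 10 genes, 0 passed an adjusted p of 0.05 with all libraries, 3 with limma-voom and sample quality weights, 3 without ELS replicate 2 and control replicate 4, and 0 to 1 when each library was left out, the 1 being Ago2 without ELS replicate 2. At an unadjusted p under 0.05 there were 5, and 3 with a filter of at least 1 RPKM, which removes Ago3 and leaves Ago4 above that value, and 3 to 5 with each library left out. Leaving out control replicate 1, 2 or 5, or ELS replicate 3, 4 or 5, gave 3, with Ago3 and Ago4 lost in each case. Over all genes the 0 became 858 with sample quality weights, 1116 without both libraries, and 0 to 444 with each left out, the 444 being without ELS replicate 2; over the lists around the pathway it became 7, 9 and 0 to 4. Tarbp2 had log2 fold changes of -0.0828 to 0.00367 with libraries left out, the last without control replicate 4, and Xpo5 of -0.0041 to 0.0671, the first without control replicate 5. Of the single genes named, 436 values under alternatives kept direction and side of the threshold, 20 passed where the fit of all libraries had not and 2 changed sign. Ago2 was lower in all 20 alternatives, with adjusted p of 0.0245 to 0.304, and Dicer1 likewise with 0.0397 to 0.304. Same-numbered libraries of both groups did not deviate together (correlations of -0.0817 to 0.0658), and with the replicate number as a block 0 of the 10 genes and 0 of all genes passed. Depth limits Ago3, with 20 to 84 reads.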
